A study of Mus musculus with 12 samples.

Results

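The CC chemokine ligands were examined in neutrophils sorted from mammary tumors and from bone marrow (BM). Their members are the 9 genes Ccl2, Ccl3, Ccl4, Ccl5, Ccl6, Ccl7, Ccl8, Ccl9 and Ccl12, found among the 55335 genes of each count table by Ensembl identifier, and all 9 passed the filter on low counts in every comparison. Ccl2, Ccl5, Ccl7, Ccl8 and Ccl12 passed it against marrow through the TAN libraries alone, so that they could only be higher there. RNA-seq libraries were made from 3 groups of 4 FVB mice, 1 library per mouse, and every mouse was 10 weeks old. PyMT TANs are tumor-associated neutrophils of mice that carry polyoma virus middle T as a mammary oncogene, PyMT-Cxcr2-/- TANs come from mice that carry the same oncogene and lack the chemokine receptor Cxcr2 in all their cells and not in neutrophils alone, and WT BM neutrophils come from the femurs and tibias of mice without either change. The cells were enriched on CD11b and then sorted as CD45+ CD11b+ Ly6G+ F4/80- cells. Tumor and marrow groups therefore differ in tissue, in the presence of a tumor and in the oncogene at once, and the part of each cannot be told apart.

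CC chemokines are small secreted proteins with a pair of adjacent cysteines, and they attract leukocytes through G protein-coupled receptors. Ccl3 and Ccl5 act on Ccr1 among other receptors, and Ccl4 is a close relative of Ccl3. Ccl6 and Ccl9 are rodent ligands of Ccr1 made by myeloid cells. Ccl2, Ccl7 and Ccl12 are monocyte chemoattractants that act on Ccr2, whereas mouse Ccl8 acts on Ccr8. Inflammatory ligands such as Ccl3 and Ccl4 are induced by TNF and IL-1 through NF-kappaB. In tumors the family is best known for bringing in monocytes, macrophages and lymphocytes.

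The 9 genes lie on mouse chromosome 11 (mm10) in 2 groups, 1.41 Mb apart. The first spans 81.2 kb, from 82035571 to 82116799, and holds Ccl2, Ccl7, Ccl12 and Ccl8. The second spans 139 kb, from 83525778 to 83664683, and holds Ccl5, Ccl9, Ccl6, Ccl3 and Ccl4. Ccl2 overlaps Gm17268 and Ccl6 overlaps E230016K23Rik, each on the opposite strand. The strand setting of the counting is not given in the sources used here, so reads of such pairs may not have been told apart. Gm17268 had at most 4 counts in a library and E230016K23Rik at most 427. The latter was at 12.3 CPM in marrow, 2.23 in PyMT TANs and 3.13 in PyMT-Cxcr2-/- TANs, the order of Ccl6, and its part in the Ccl6 counts was not tested. Of the 50-base stretches of Ccl9, 1.97% also occur in annotated transcripts of other genes, and those of the other 8 members occur in none. The rest of the genome was not searched.

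Promoter windows of the 250 bases before the transcription start, as RefSeq gives them on GRCm38.p6 (the assembly of mm10), were matched for 5 of the 9 members. They are shown because Ccl6, the ligand that was lower in TANs, can be read beside Ccl9, its neighbor that was higher, beside Ccl3, which differed between the TAN groups, and beside Ccl8 and Ccl12, which had no count in marrow. Capitals mark matches, on either strand, to a TATA box (TATAAA), a form of Ets site (GAGGAA), an AP-1 site (TGANTCA) and the NF-kappaB consensus.
Ccl6 (chr11:83593088-83593337, minus strand): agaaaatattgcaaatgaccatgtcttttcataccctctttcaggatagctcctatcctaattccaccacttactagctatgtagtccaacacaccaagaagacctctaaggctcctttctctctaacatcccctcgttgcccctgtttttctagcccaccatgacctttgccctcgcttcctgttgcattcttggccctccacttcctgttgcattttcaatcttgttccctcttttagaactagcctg
Ccl9 (chr11:83578637-83578886, minus strand): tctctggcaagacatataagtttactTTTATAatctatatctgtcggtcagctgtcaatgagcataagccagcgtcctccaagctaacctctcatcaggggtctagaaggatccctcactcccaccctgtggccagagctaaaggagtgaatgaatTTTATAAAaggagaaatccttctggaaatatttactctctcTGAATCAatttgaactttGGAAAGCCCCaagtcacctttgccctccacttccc
Ccl3 (chr11:83649379-83649628, minus strand): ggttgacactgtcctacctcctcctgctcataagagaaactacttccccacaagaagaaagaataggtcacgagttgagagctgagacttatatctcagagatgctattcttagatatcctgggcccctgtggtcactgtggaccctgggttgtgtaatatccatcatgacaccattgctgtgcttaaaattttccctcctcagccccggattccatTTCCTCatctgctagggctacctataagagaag
Ccl8 (chr11:82114935-82115184, plus strand): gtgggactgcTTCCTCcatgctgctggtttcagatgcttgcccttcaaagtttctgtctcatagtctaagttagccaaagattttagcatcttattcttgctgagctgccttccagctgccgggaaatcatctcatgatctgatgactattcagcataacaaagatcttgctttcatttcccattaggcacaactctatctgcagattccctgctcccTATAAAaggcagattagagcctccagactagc
Ccl12 (chr11:82101595-82101844, plus strand): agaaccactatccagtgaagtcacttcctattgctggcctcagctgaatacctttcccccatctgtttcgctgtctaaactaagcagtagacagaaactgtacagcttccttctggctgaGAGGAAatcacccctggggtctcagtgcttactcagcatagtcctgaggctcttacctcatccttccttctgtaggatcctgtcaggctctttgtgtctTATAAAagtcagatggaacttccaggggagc

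The Ccl6 window held no match to these patterns. Other forms of an Ets site were not searched in any window. The letters ttcc, which are GGAA on the other strand, do occur in the Ccl6 window. The Ccl9 window held TATA letters starting 224, 94 and 92 bases before the start, the last pair overlapping on opposite strands, an AP-1 match at 53 bases and the only NF-kappaB match among the 5 windows, at 35 bases. Ccl8 and Ccl12 each had TATAAA close to the start, at 32 and 31 bases before it, and the Ets letters at 240 and 130 bases. The Ccl3 window had the Ets letters at 33 bases. That position holds for the RefSeq start only, since this window begins at 83649379 and the annotation used for gene positions ends Ccl3 at 83649355. The other windows abut their annotated genes. Among all 32851 windows of the table, TATAAA was present in 12.4%, the Ets letters in 23.3%, the NF-kappaB consensus in 7.25% and the AP-1 letters in 6.75%. A match describes the letters only, and binding was not measured.

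The total count on genes ran from 25032704 to 51351569 per library, so that 3 counts, taken as the detection floor, corresponded to 0.0565 to 0.102 CPM (counts scaled to library size with TMM factors), for counting error only. Cxcr2 read 1043 to 1523 CPM in PyMT TANs, 1824 to 2253 in marrow and 8.82 to 10.01 in PyMT-Cxcr2-/- TANs, low in the libraries labelled as lacking the gene and in no other. The neutrophil marker Ly6g was present in every library, with a mean of 549 ± 85.3 CPM (SD, n = 4) in marrow, 35.6 ± 12.2 in PyMT TANs and 125 ± 36.8 in PyMT-Cxcr2-/- TANs. Over 12 neutrophil markers, the summed level was 106900 to 149000 CPM in marrow, 10970 to 17440 in PyMT TANs and 20810 to 36240 in PyMT-Cxcr2-/- TANs. In bulk libraries, fewer cells of a type and less RNA per cell cannot be told apart.

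Markers of macrophages were present in the TAN libraries although the sort excluded F4/80+ cells. Of 12 macrophage markers, 11 could be tested. All 11 were higher in PyMT and in PyMT-Cxcr2-/- TANs than in WT BM neutrophils, beside 30.1% and 34.4% of all genes tested. Of the 11 markers, 1 passed the filter through the TAN libraries alone. Their summed level was 221 to 315 CPM in marrow, 2185 to 5319 in PyMT TANs and 2374 to 5004 in PyMT-Cxcr2-/- TANs, led by Apoe (19.4, 1967 and 1770 CPM on average) and Csf1r (219, 741 and 724). Adgre1, the gene of F4/80, was at 10.3 ± 1.40, 138 ± 51.4 and 110 ± 28.0 CPM in the same order, while Trem2 was at 0 in PyMT TANs and WT BM neutrophils and reached 7 counts in 1 PyMT-Cxcr2-/- library. Epithelial markers summed to at most 0.516 CPM in marrow, 49.2 to 472 in PyMT TANs and 87.2 to 331 in PyMT-Cxcr2-/- TANs. These levels moved with the comparisons of TANs with marrow given next, and their part in those results was not tested.

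Of the 9 ligands, 8 were higher in PyMT TANs than in WT BM neutrophils, and Ccl6 was lower. Of these 8, 5 passed the filter through the TAN libraries alone and could only be higher. Of the 4 that passed through both groups, Ccl3, Ccl4 and Ccl9 were higher and Ccl6 was lower. No ligand overlapped between the groups. Of all 17153 genes tested, 53.3% were called in this comparison (30.1% higher and 23.2% lower, at an adjusted p under 0.05 and at least 1.5-fold), and 58.3% did not overlap between the groups (28.7% higher and 29.6% lower), so a large share of the transcriptome moved. With library totals in place of TMM, 6674 genes were higher and 2488 lower in place of 5160 and 3988. With GC content and length adjusted, 4436 were higher and 5260 lower. The median log2 fold change was 4.31 over the ligands, also with the members that marrow lacked set at their lower bounds, and 0.087 over all genes tested. The ligand median includes the 5 that could only be higher. The question here is which ligands neutrophils of a tumor express beside those of normal marrow.

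Ccl3 and Ccl4, related ligands that recruit monocytes and lymphocytes, were both low in marrow. Ccl3 read 180, 227, 167 and 172 CPM in PyMT TANs and 10.5, 25.0, 16.7 and 21.3 CPM in WT BM neutrophils. Ccl4 read 63.7, 118, 103 and 87.5 CPM against 2.70, 7.30, 4.59 and 5.10 CPM. The lowest tumor library was well above the highest marrow library for both genes. The log2 fold change was 3.41 ± 0.25 (SE) for Ccl3, or 10.6-fold (edgeR adjusted p = 8.2e-07), and 4.31 ± 0.31 for Ccl4, or 19.8-fold (adjusted p = 7.2e-07). Ccl5, best known as a T cell product, was scarce in every library. It read 1.14, 1.42, 2.93 and 1.27 CPM in PyMT TANs and 0.124 to 0.18 CPM (4 to 6 counts) in WT BM neutrophils, a log2 fold change of 3.43 ± 0.61 (adjusted p = 0.00056).

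**Figure D1:**
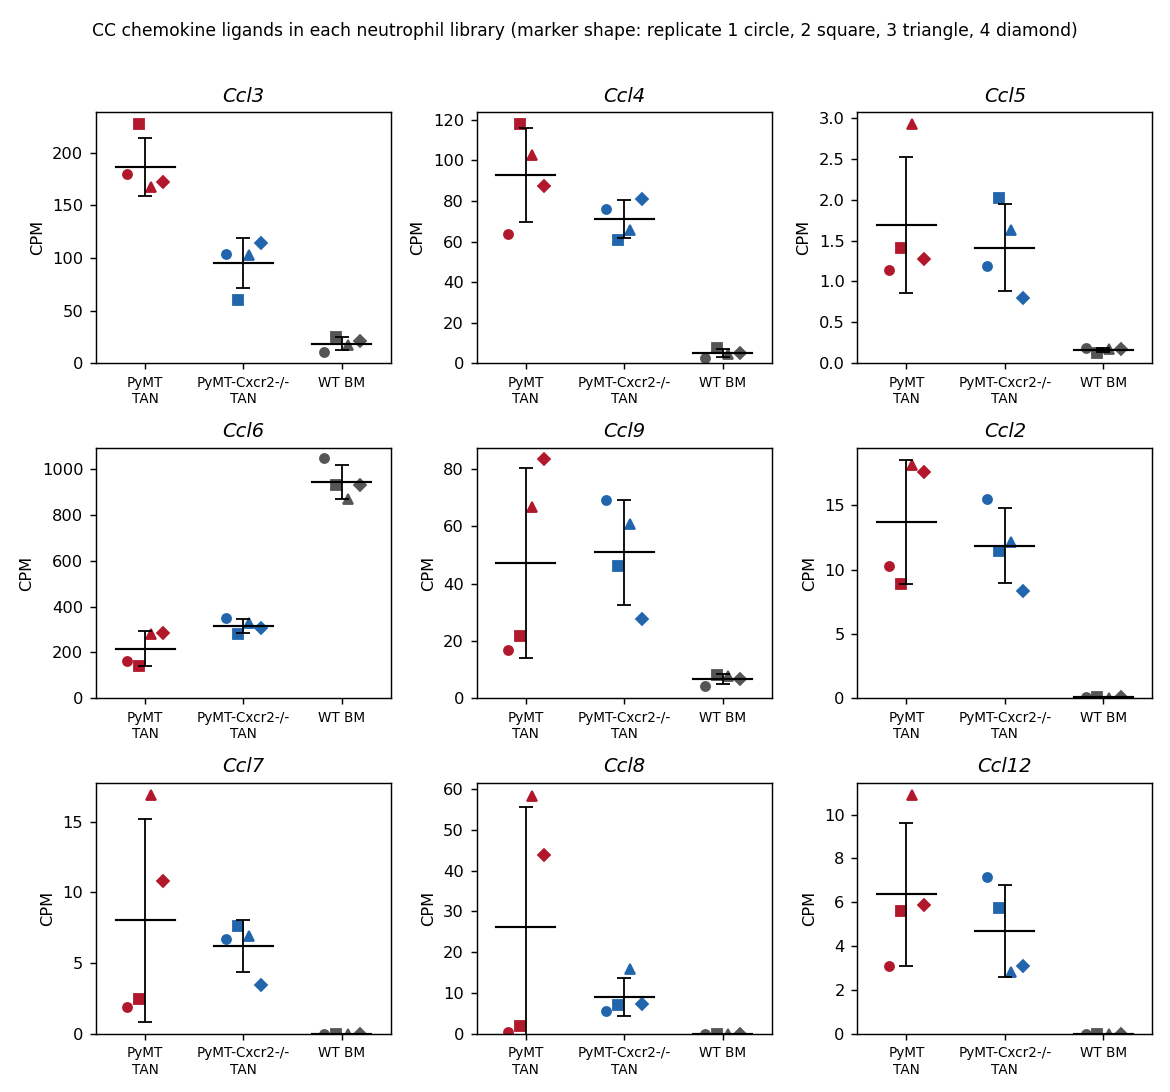
Level of each CC ligand in CPM (linear axes starting at 0) in the 3 groups of 4 mice. Points are libraries, with marker shape giving the replicate number, lines are group means and bars are 1 SD, drawn down to 0 at most. Ccl6 is highest in WT BM neutrophils, at 870 to 1046 CPM, and the other 8 ligands are lowest there.

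The Ccr1 ligands Ccl6 and Ccl9, neighbors in the genome, went in opposite directions. Ccl6 read 1046, 928, 870 and 930 CPM in WT BM neutrophils and 163, 140, 282 and 285 CPM in PyMT TANs. It was 4.13-fold lower in the tumor, with a log2 fold change of -2.05 ± 0.23 (adjusted p = 2.3e-05). Ccl9 read 16.9, 21.8, 66.8 and 83.5 CPM in PyMT TANs and 4.35, 8.26, 7.65 and 6.89 CPM in marrow. Its log2 fold change was 2.87 ± 0.49, or 7.33-fold higher (adjusted p = 0.00042), and the tumor libraries themselves spread 4.93-fold.

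The ligands of the first gene group were absent or near absent in marrow. Ccl2, the main ligand of Ccr2, read 10.3, 8.92, 18.1 and 17.6 CPM in PyMT TANs and had 4, 4, 0 and 4 counts in the WT BM libraries. Its log2 fold change was 7.30 ± 0.56 (adjusted p = 1.1e-06), which rests on those few marrow counts. Ccl7, Ccl8 and Ccl12 had 0 counts in every WT BM library, so only a lower bound of the change can be given, against 3 counts in each marrow library. Ccl12, a rodent ligand of Ccr2, read 3.10, 5.58, 10.9 and 5.87 CPM in PyMT TANs, at least 72.1-fold higher (adjusted p = 1.7e-05). Ccl7 read 1.87, 2.48, 16.9 and 10.8 CPM, at least 90.8-fold higher (adjusted p = 0.00021). Ccl8 read 0.337, 1.90, 58.4 and 43.9 CPM, a bound of at least 296-fold for the group mean (adjusted p = 0.0032). The PyMT TAN libraries thus spread 173-fold in Ccl8 and 9-fold in Ccl7, and the bound for Ccl8 is set by replicates 3 and 4. Without a filter on low counts Ccl8 was no longer called (adjusted p = 0.11).

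In PyMT-Cxcr2-/- TANs the comparison with the same 4 WT BM libraries gave 8 ligands higher and Ccl6 lower again, where 59.5% of 17732 genes were called (34.4% higher and 25.1% lower) and 65.9% did not overlap (32.2% higher and 33.8% lower). With GC content and length adjusted, 4790 genes were higher and 7301 lower in place of 6104 and 4444. Both comparisons share their marrow libraries, so they are not independent, and their values are given side by side. The same 5 ligands passed the filter through the TAN libraries alone and could only be higher. Of the 4 that passed through both groups, Ccl3, Ccl4 and Ccl9 were higher and Ccl6 was lower. The median log2 fold change was 3.98 over the ligands, those 5 included, also with the bounds, and 0.086 over all genes tested. Ccl3 read 104, 60.2, 103 and 114 CPM and was 5.68-fold higher than in marrow, with a log2 fold change of 2.51 ± 0.27 (adjusted p = 7.3e-06). Ccl4 read 76.2, 61, 65.7 and 81.1 CPM and was 15.8-fold higher, with 3.98 ± 0.24 (adjusted p = 3.4e-08). The call for Ccl5 rested on 0.801 to 2.03 CPM, with 3.24 ± 0.44 (adjusted p = 1.8e-05).

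Ccl6 read 350, 280, 327 and 306 CPM in PyMT-Cxcr2-/- TANs, 2.72-fold lower than in marrow, with a log2 fold change of -1.44 ± 0.11 (adjusted p = 1.4e-07). Ccl9 read 69.4, 46.3, 60.7 and 27.6 CPM, 8.27-fold higher, with 3.05 ± 0.29 (adjusted p = 3e-06). The ligands of the first gene group were more even among these mice than among the PyMT mice. Ccl2 read 15.5, 11.4, 12.2 and 8.38 CPM, with 7.16 ± 0.41 (adjusted p = 1e-08). Ccl7 was at 3.47 to 7.62 CPM, Ccl8 at 5.46 to 15.9 CPM and Ccl12 at 2.81 to 7.14 CPM. They were at least 70.0-, 102- and 53.2-fold higher than in marrow (adjusted p = 1.7e-07, 5.8e-07 and 9.2e-07).

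**Figure D2:**
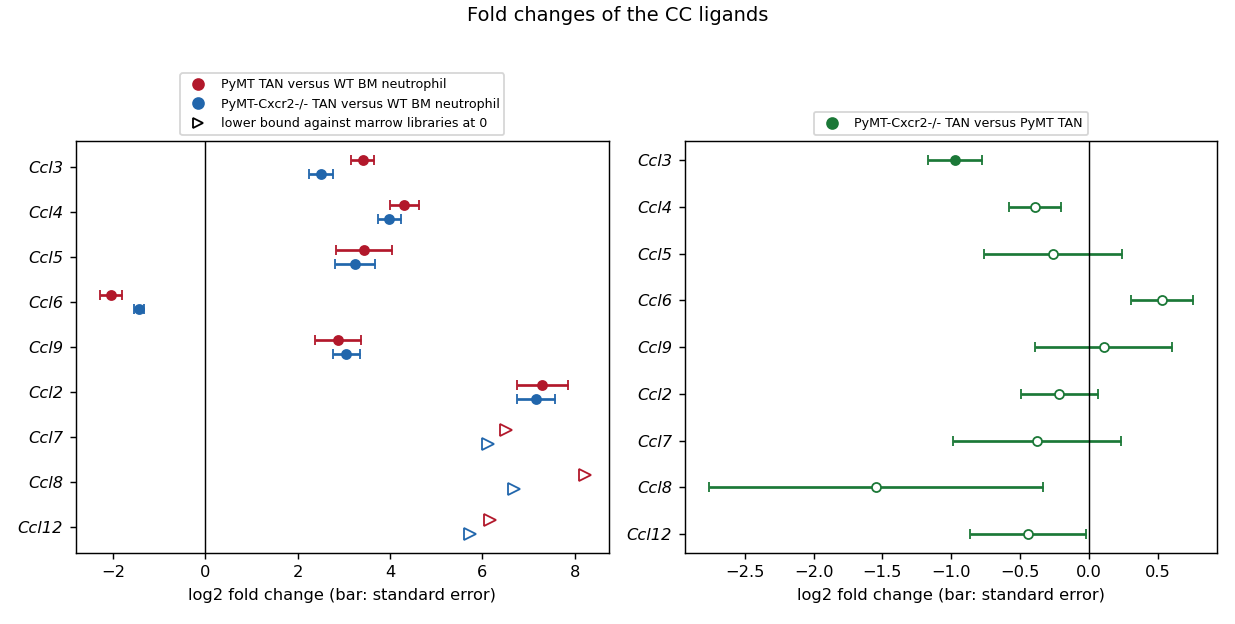
Log2 fold changes with standard errors, for both kinds of TAN against WT BM neutrophils (left) and for PyMT-Cxcr2-/- TANs against PyMT TANs (right). Filled circles passed the thresholds, open circles did not, and triangles are lower bounds against marrow libraries with 0 counts. Ccl6 alone lies below 0 on the left, and Ccl3 alone is filled on the right, at -0.97.

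The comparison of the TAN groups addresses what loss of Cxcr2 in all cells of the mouse changes in tumor neutrophils. The study reports heavier tumors in PyMT-Cxcr2-/- mice than in PyMT mice, with more neutrophils and fewer macrophages. Loss of Cxcr2 in the neutrophils and the different tumor around them therefore cannot be told apart. Between the TAN groups, 1 of the 9 ligands was called, Ccl3, which was lower in PyMT-Cxcr2-/- TANs. Of all 18463 genes tested, 1.98% were called (1.38% higher and 0.596% lower), and 12% did not overlap between the groups (6.34% higher and 5.70% lower). With library totals, 206 genes were higher and 391 lower in place of 255 and 110. The median log2 fold change of the ligands was -0.38, beside -0.072 over all genes tested. The study names Ccl3 among its own results on these libraries, so its choice is not independent of them. All 4 PyMT-Cxcr2-/- libraries, at 60.2 to 114 CPM, were below all 4 PyMT libraries, at 167 to 227 CPM. The group means were 95.4 ± 24 and 187 ± 27.7 CPM (SD, n = 4), and the log2 fold change was -0.97 ± 0.20, or 1.96-fold lower (edgeR adjusted p = 0.03).

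This call is close to the threshold. Ccl3 was lower under all 19 alternative settings, with log2 fold changes from -1.26 to -0.80 and adjusted p from 0.0024 to 0.2, but was called in 9 of them, and leaving out 1 mouse at a time kept the call in 2 of 8 fits.

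**Figure D3:**
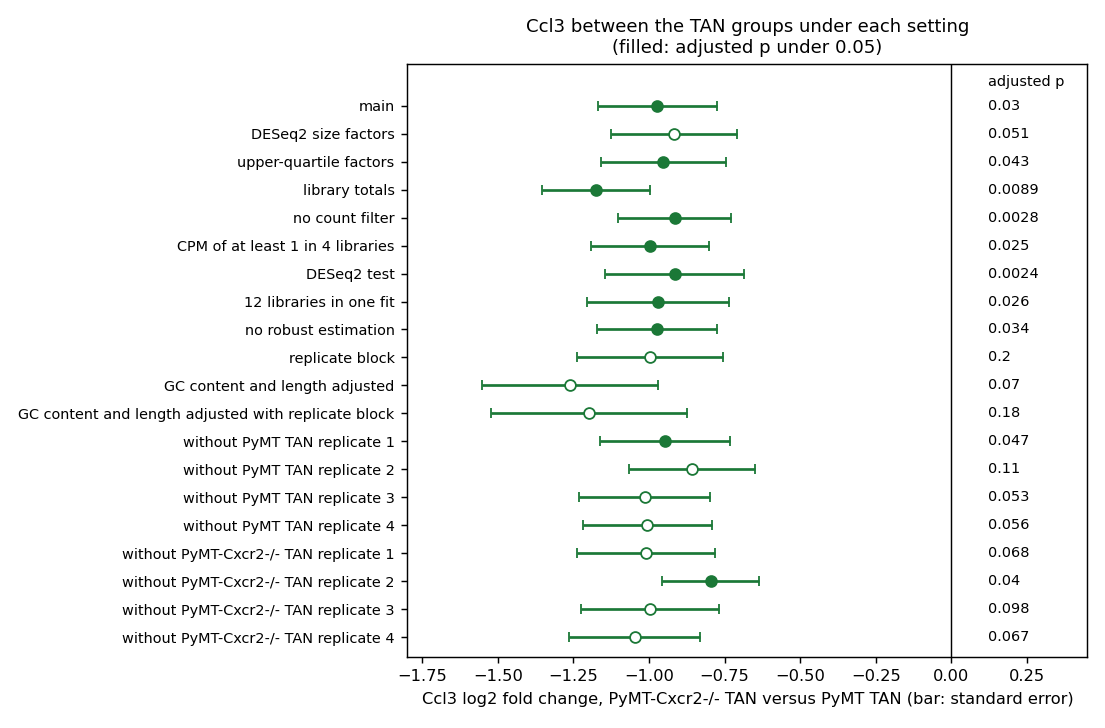
Ccl3 log2 fold change between the TAN groups (points, bars are standard errors) under the reported setting (main) and 19 alternatives, with the adjusted p of each at the right and filled points under 0.05. Every point lies between -1.26 and -0.80, and the adjusted p ranges from 0.0024 to 0.2.

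For the other 8 ligands the groups overlapped and no call was made. Ccl4, the gene next to Ccl3, was at 93.0 ± 23.1 CPM in PyMT TANs and 71.0 ± 9.26 in PyMT-Cxcr2-/- TANs, a log2 difference of -0.39 ± 0.19 (adjusted p = 0.36). The ratio of Ccl3 to Ccl4 in CPM was 3.43 to 4.18 in marrow, 1.63 to 2.82 in PyMT TANs and 0.988 to 1.57 in PyMT-Cxcr2-/- TANs, ranges that did not overlap and were not tested. Ccl6 had the largest positive difference of the 9, 0.53 ± 0.22 (adjusted p = 0.28), and the highest PyMT library, at 285 CPM, exceeded the lowest PyMT-Cxcr2-/- library, at 280 CPM. Ccl9 differed by 0.11 ± 0.50 (adjusted p = 0.97). Its sign turned under library totals, to -0.091.

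Among the ligands of the first gene group, Ccl7 and Ccl8 spread 9-fold and 173-fold over PyMT mice. Over PyMT-Cxcr2-/- mice they spread 2.19-fold and 2.92-fold. Ccl2 (2.03-fold and 1.85-fold) and Ccl12 (3.52-fold and 2.54-fold) spread more alike in the 2 TAN groups. The log2 difference was -0.21 ± 0.28 for Ccl2 (adjusted p = 0.82), -0.38 ± 0.61 for Ccl7 (adjusted p = 0.87), -0.44 ± 0.42 for Ccl12 (adjusted p = 0.72) and -1.55 ± 1.22 for Ccl8 (adjusted p = 0.65). Ccl5 gave -0.26 ± 0.51 (adjusted p = 0.9). With standard errors of this size, even a change as large as that of Ccl3 could not be seen for Ccl8. None of the 11 macrophage markers tested and none of the 10 epithelial markers was called between the TAN groups.

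The PyMT TAN libraries differed among themselves in these genes. Replicates 3 and 4 had the highest levels of Ccl2, Ccl6, Ccl7, Ccl8, Ccl9 and Ccl12, and replicates 1 and 2 the lowest. Ccl3 and Ccl4 did not follow this order, since replicate 2 was highest in both. In the same order of replicates, epithelial markers summed to 49.2, 64.5, 352 and 472 CPM and macrophage markers to 2185, 4954, 5319 and 3655 CPM. Monocyte markers summed to 203, 391, 564 and 463 CPM and fibroblast markers to 0.801, 2.91, 13.7 and 8.63 CPM, the order of the libraries in Ccl7 and Ccl8. In PyMT-Cxcr2-/- TANs the epithelial sums were 251, 331, 87.2 and 124 CPM, and there Ccl8 was highest in replicate 3, which had the lowest epithelial sum. The fibroblast sums there were 23.3, 33.6, 35.1 and 1.77 CPM, highest in the same replicate 3, and the monocyte sums were 561, 493, 432 and 359 CPM. The part of these cell types in the ligand levels was not tested.

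**Figure D4:**
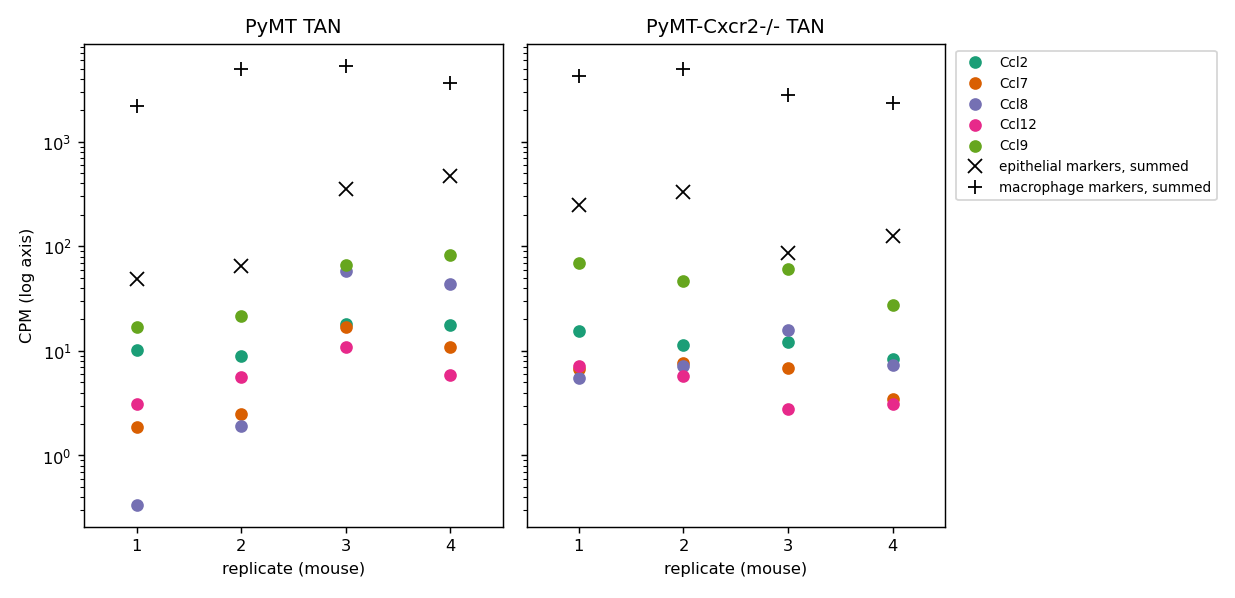
Levels in CPM (log axis) of Ccl2, Ccl7, Ccl8, Ccl12 and Ccl9 (circles) and the summed levels of epithelial (crosses) and macrophage markers (plus signs) in each TAN library. In PyMT TANs Ccl8 runs from 0.337 CPM in replicate 1 to 58.4 CPM in replicate 3, while in PyMT-Cxcr2-/- TANs it stays between 5.46 and 15.9 CPM.

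To compare genes with each other, levels were divided by gene length (RPKM, which is CPM per kilobase of exon). In WT BM neutrophils Ccl6 was first in each library, at 526 ± 41.1 RPKM (SD, n = 4), and took 91.7% to 96.8% of the summed level of the 9 ligands. Ccl3 followed at 24 ± 8.18, Ccl4 at 7.46 ± 2.87 and Ccl9 at 2.23 ± 0.57 RPKM, with no overlap between neighbors in this order, and the others were below 0.2 RPKM on average. In PyMT TANs Ccl3 was first in each library, at 244 ± 36.1 RPKM, and took 30.0% to 52.6% of the sum. Ccl4 (141 ± 35.1) and Ccl6 (121 ± 42.7) came next and overlapped each other. Ccl8 (51.1 ± 57.7), Ccl9 (15.5 ± 10.8), Ccl2 (12.1 ± 4.23), Ccl12 (11.8 ± 6.09) and Ccl7 (10.0 ± 8.97) followed, and Ccl5 was last at 1.76 ± 0.87. From Ccl4 down, each range overlapped that of its neighbor.

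In PyMT-Cxcr2-/- TANs Ccl6 was first in each library, at 176 ± 16.7 RPKM, without overlap with Ccl3 at 124 ± 31.3, which overlapped Ccl4 at 108 ± 14. Ccl6 took 35.2% to 40.2% of the sum there, against 13.3% to 23.7% in PyMT TANs. Ccl3 took 20.2% to 30.8%, against 30.0% to 52.6%, ranges that touch. The order of the leading ligands thus differed between the TAN groups in all 8 mice, as a description of shares that was not tested. The summed level itself was 516 to 602 RPKM in marrow, 447 to 727 in PyMT TANs and 389 to 516 in PyMT-Cxcr2-/- TANs, and all 3 ranges overlapped, those of marrow and PyMT-Cxcr2-/- TANs only at their ends. Without the scaling to length the sum was higher in marrow, at 899 to 1063 CPM against 440 to 725 and 482 to 636 CPM, with no overlap.

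**Figure D5:**
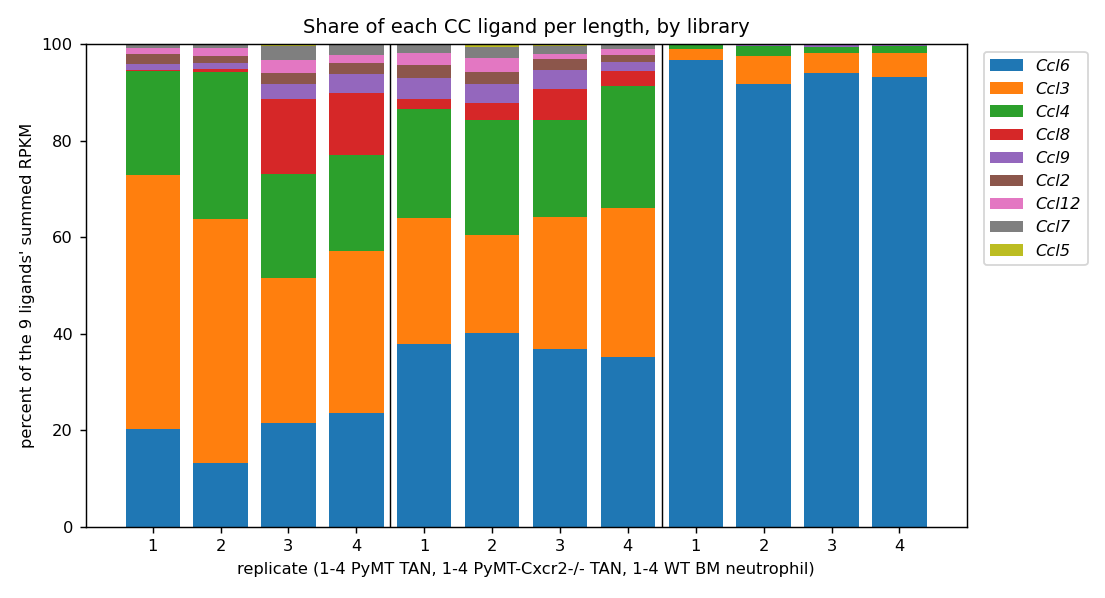
Share of each ligand in the summed RPKM of the 9 ligands (vertical axis, percent) in each of the 12 libraries. Ccl6 fills 91.7% to 96.8% of the WT BM bars, Ccl3 is the largest share in the 4 PyMT TAN bars and Ccl6 in the 4 PyMT-Cxcr2-/- TAN bars.

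Of 12 other CC ligands, few passed the filter and their levels were low. In PyMT TANs 3 were tested and Ccl17, a ligand of Ccr4, was higher than in marrow (1.67 and 0.171 CPM, log2 fold change 3.34 ± 0.75, adjusted p = 0.0027). In PyMT-Cxcr2-/- TANs Ccl17 was at 0.473 CPM and not tested against marrow, and 4 others were tested. Ccl22, which also acts on Ccr4, was higher (3.09 and 0.0155 CPM, adjusted p = 2.2e-06), as was Ccl24, a ligand of Ccr3, at 1.22 CPM against 0 counts in each marrow library (adjusted p = 0.00013). Both were not tested in PyMT TANs, where they averaged 1.70 and 1.08 CPM. Ccl17, Ccl22 and Ccl24 passed the filter through the TAN libraries alone, so that they could only be higher there. Ccl25, a ligand of Ccr9, was lower (5.01 and 8.66 CPM, adjusted p = 0.0069), and so was Ccl27a, a ligand of Ccr10 (adjusted p = 0.0011). Between the TAN groups 6 were tested and none was called by edgeR or DESeq2, with 1, Ccl17, at an unadjusted p under 0.05.

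Of 10 CC chemokine receptors, 7 were tested and 6 were higher in either kind of TAN than in marrow, the exception being Ccr9, with median log2 fold changes of 2.84 and 2.69. Of all genes tested, 30.1% were higher in PyMT TANs and 34.4% in PyMT-Cxcr2-/- TANs. The 6 receptors include Ccr6, which had 0 to 8 counts in marrow and passed the filter through the TAN libraries alone. Ccr1, which binds Ccl3, Ccl5, Ccl6 and Ccl9, was the receptor with the highest CPM, at 841 ± 52.9 in marrow, 1290 ± 158 in PyMT TANs and 1463 ± 151 in PyMT-Cxcr2-/- TANs. Against marrow the log2 fold change of Ccr1 was 0.69 (adjusted p = 0.00078) and 0.93 (adjusted p = 8.6e-06). Ccr2 rose from 4.47 CPM in marrow to 62.2 and 64.7 CPM. Ccr2 is also carried by monocytes and macrophages. All 11 macrophage markers tested were higher in either kind of TAN than in marrow. Of 5 monocyte markers, Ccr2 itself among them, 4 were higher and Ly6c2 was lower. The summed monocyte level was lower in TANs, at 203 to 564 and 359 to 561 CPM against 655 to 865 in marrow. That sum follows Ly6c2, which averaged 742 CPM in marrow, 26.1 in PyMT TANs and 94.0 in PyMT-Cxcr2-/- TANs. The other 4 monocyte markers averaged 0.617 to 7.66 CPM in marrow. The part of these cells in the Ccr2 level was not tested. Ccr8, the receptor of mouse Ccl8, was at 0 in all 12 libraries. No receptor was called between the TAN groups by edgeR or DESeq2, with none at an unadjusted p under 0.05.

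Among 4 atypical receptors, Ccrl2, a chemerin-binding relative, was 15.2-fold higher in PyMT TANs than in marrow (2780 ± 225 and 192 ± 31.5 CPM, adjusted p = 2.9e-08) and 13.2-fold higher in PyMT-Cxcr2-/- TANs (2318 ± 511 CPM, adjusted p = 4.2e-09). Ackr4, a scavenger of Ccl25, was lower, at 0.354 and 0.443 CPM against 3.08 CPM (adjusted p = 0.035 and 0.00012). None was called between the TAN groups by edgeR or DESeq2, with none at an unadjusted p under 0.05.

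Of 21 inducers of these ligands and their feedback genes, 19 were tested. Against marrow 12 were higher in PyMT TANs, with a median log2 fold change of 1.79, and 15 in PyMT-Cxcr2-/- TANs, with a median of 1.95. Of all genes tested, 30.1% and 34.4% were higher. Il1b, an inflammatory cytokine, was at 8491 ± 909 and 8052 ± 1142 CPM in the TAN groups and 794 ± 74.2 in marrow. Tnfaip3, a feedback inhibitor of NF-kappaB, was at 2473 ± 200 CPM in PyMT TANs and 73.2 ± 3.55 in marrow, 35.4-fold higher (adjusted p = 4.3e-09). Nfkbiz, a cofactor of NF-kappaB, was at 2894 ± 589 CPM in PyMT-Cxcr2-/- TANs, 5.07-fold above marrow (adjusted p = 2.7e-07).

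Between the TAN groups 2 of these 19 genes were called, and both were lower in PyMT-Cxcr2-/- TANs. Of all genes tested, 1.98% were called and 0.596% were lower. Of the 19, 7 had an unadjusted p under 0.05, and the median log2 fold change was 0.014. Tnf, an inducer of Ccl3, read 123, 140, 231 and 126 CPM in PyMT TANs and 65.7, 43.0, 68.3 and 84.2 CPM in the PyMT-Cxcr2-/- group. The log2 fold change was -1.25 ± 0.24 (adjusted p = 0.026). Il1a read 81.0, 94.2, 139 and 108 CPM against 56.2, 33.9, 42.8 and 28.4 CPM, with -1.39 ± 0.23 (adjusted p = 0.015). The groups did not overlap for 5 of the 19 genes, Tnf and Il1a among them, beside 12% of all genes tested. The others were Nfkb2, Nfkbiz and Cebpb, which were higher in PyMT-Cxcr2-/- TANs but not called. Their log2 fold changes were 0.46, 0.49 and 0.74 (edgeR adjusted p = 0.16, 0.17 and 0.17). The part of Tnf and Il1a in the level of Ccl3 was not tested. The study also names Tnf among its results on these libraries.

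Over the 12 libraries and 16324 genes that passed the filter in each comparison, the genes closest to each ligand were found by the mean absolute difference of centred log2 CPM, as a description. The nearest to Ccl3 were A630001O12Rik (0.23), Il1bos (0.24), a transcript from the strand opposite Il1b, and 4933433G15Rik (0.26). Il1bos was at 8.52 ± 2.03 CPM in marrow, 74.8 ± 8.41 in PyMT TANs and 36.2 ± 7.59 in PyMT-Cxcr2-/- TANs. The nearest to Ccl4 was Atf3 (0.21), a stress-induced transcription factor, at 30.8 ± 9.42, 447 ± 90.3 and 428 ± 30.4 CPM in the same order, followed by Slc38a1 and Gm44851. Ccl6 had the closest neighbors of all members, Ttc13 (0.16), Stambp (0.17) and Herc3 (0.17), each highest in marrow.

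Ccl8 had the most distant neighbors. They were Retnla (0.55) and Cbr2 (0.74), which are macrophage genes in many tissues, and Esrp1 (0.70), an epithelial splicing factor. Retnla read 2.34, 8.22, 138 and 83.2 CPM in PyMT TANs and 18.9 to 43.5 CPM in PyMT-Cxcr2-/- TANs, and Cbr2 read 0.611, 0.694, 57.8 and 25.9 CPM in PyMT TANs, which is the order of the libraries in Ccl8. The macrophage marker Fcgr1 was among the neighbors of Ccl2, with Rab3il1 and Tlr3. Those of Ccl7 were Nav3, Plxnb1 and Tmem37, and those of Ccl12 were Pxdc1, Tmem37 and Hspa1a. Ccl5 was closest to Rassf8, Aplp1 and Rrp9, and Ccl9 to Kctd12b, Raph1 and Plekhg5. Among the members, Ccl7 and Ccl12 were the closest pair (0.46), then Ccl2 and Ccl12 (0.50), Ccl5 and Ccl9 (0.58) and Ccl3 and Ccl4 (0.59).

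Other cell types gave mixed values in these libraries. Of 5 monocyte markers, which include Ccr2, 4 were higher and Ly6c2 was lower in either kind of TAN than in marrow, and Ly6c2 was higher in PyMT-Cxcr2-/- TANs than in PyMT TANs (log2 fold change 1.84, adjusted p = 0.011). Of 12 neutrophil markers, 11 were lower in either kind of TAN, and between the TAN groups 8 were higher in PyMT-Cxcr2-/- TANs and Cxcr2 was lower. Of all genes tested, 23.2% and 25.1% were lower in PyMT and PyMT-Cxcr2-/- TANs than in marrow. Between the TAN groups 1.38% were higher in PyMT-Cxcr2-/- TANs. Of 5 eosinophil markers, Siglecf and Ccr3 were higher in both kinds of TAN than in marrow. Siglecf was lower in PyMT-Cxcr2-/- TANs than in the PyMT group (log2 fold change -1.32, adjusted p = 0.01). The other 3 averaged under 1 CPM in each group and were not tested against marrow. Marrow averaged 0.602 CPM for Prg2, 0.21 for Epx and 0.029 for Il5ra. Prg2 averaged less in either kind of TAN (PyMT 0.032, PyMT-Cxcr2-/- 0.023 CPM), as did Epx (0.021 and 0.016). Il5ra averaged more (0.287 and 0.306). Markers of T and NK cells summed to 14.8 to 44.1 CPM in TANs and 211 to 246 CPM in marrow, where Cd3d alone averaged 221 CPM. Other markers of that list did not follow the sum, since Cd4 was higher in both kinds of TAN (7.25 and 2.23 CPM against 0.212 CPM, adjusted p = 2e-04 and 0.00013) and Cd3e averaged under 1 CPM in each group. B cell markers summed to at most 19.1 CPM, dendritic cell markers to at most 22.4 CPM, fibroblast markers to at most 35.1 CPM, endothelial markers to at most 40.1 CPM and mast cell markers to at most 2.83 CPM in any library.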

How the data were processed

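Neutrophils of 12 mice, 4 in each of the 3 groups given by the sample labels, were profiled. The authors depleted ribosomal RNA, made directional libraries, trimmed the paired-end reads, used STAR for alignment to mm10 and HTSeq for counting. The deposited files hold the raw count of each gene. The annotation release and strand setting are not given in the sources used here. Of 55335 Ensembl identifiers, 55154 were matched to symbols.

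Each comparison was fitted on its own groups with the quasi-likelihood test of edgeR 4.0.16 (limma 3.58.1, R 4.3.3), with TMM, filterByExpr and robust estimation, and p-values were adjusted by Benjamini-Hochberg over all genes tested. A gene was called at an adjusted p under 0.05 and at least 1.5-fold. The standard error is the log2 fold change over the square root of F. CPM use TMM factors over the 12 libraries, RPKM divide them by merged exon length, and distances use log2 CPM with a prior count of 2. Scripts were tested on simulated data.

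All 9 members are named. Other genes are named from 4 lists (other ligands, receptors, atypical receptors, inducers and feedback genes) where called between the TAN groups, or as the 2 called genes of highest CPM against marrow, with the 3 genes nearest to each member and the leading or absent genes of marker lists. Ccr3, Ccr6, Ccr8, Ccr9, Fcgr1, Siglecf, Ly6c2, Ly6g, Adgre1, Cd3e and Cd4 were added after their values were seen, as were Ccl25, Ccl27a, Ccl22 and Ccl24 where they complete a count. Epx, Prg2, Il5ra, Nfkb2 and Cebpb were also added after their values were seen. The members and lists were chosen with earlier results of these data known, and some genes of the lists are not reported here, so counts and medians cover the rest. Alternatives were other normalization factors, count filters, DESeq2 1.42.0, 1 fit of 12 libraries, no robust estimation, a replicate block, adjustment for GC content and length, and each mouse left out. Replicates of a group differed by more than sampling noise (chi-square per degree of freedom 22.6 to 134 over 18 pairs). The labels give replicate numbers, and the study gives 4 animals per group for its comparison of the TAN groups. Replicates were taken as separate mice in all 3 groups.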

Additional observations from a re-analysis of the deposited data

Results flagged for a closer look

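Of 24 groups of 4 libraries in which the ligands could be tested for a sample far from the others, 2 had one, and chance flags about 1 in 20 groups. Ccl5 in PyMT TANs read 2.93 CPM in replicate 3, while the other 3 libraries were between 1.14 and 1.42 CPM. Ccl2 in WT BM neutrophils read 0 CPM in replicate 3, while the other 3 libraries were between 0.112 and 0.124 CPM, which is 4 counts each. A difference between groups was listed for Ccl3, whose change from marrow was smaller in PyMT-Cxcr2-/- TANs than in PyMT TANs by -0.97 on the log2 scale, by the edgeR test between the TAN groups (adjusted p = 0.03).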

How the results depend on the processing

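Against marrow, 8 or 9 ligands were called under every alternative in either kind of TAN, with Ccl6 lower and the others higher. Of the ligands short of 9, Ccl8 in PyMT TANs gave a log2 fold change of 12.91 and an adjusted p of 0.11 without a count filter and was not tested at a CPM of at least 1 in 4 libraries, as Ccl5 was not in PyMT-Cxcr2-/- TANs. Between the TAN groups the count of called ligands was 1, and fell to 0 with DESeq2 size factors (Ccl3 adjusted p = 0.051), with GC content and length adjusted (adjusted p = 0.07), with the replicate block (0 called, Ccl3 -0.996, adjusted p = 0.2) and with both adjustment and replicate block (0 called, adjusted p = 0.18). Leaving out each mouse gave 0 to 1 called ligands. The call held without PyMT TAN replicate 1 (adjusted p = 0.047) or PyMT-Cxcr2-/- TAN replicate 2 (adjusted p = 0.04), and was lost without PyMT TAN replicates 2, 3 or 4 (adjusted p = 0.11, 0.053 and 0.056) or PyMT-Cxcr2-/- TAN replicates 1, 3 or 4 (adjusted p = 0.068, 0.098 and 0.067). DESeq2 kept it (adjusted p = 0.0024). Differences between the TAN groups that were never called changed sign for Ccl9 with library totals (-0.091) and over the fits that left out a mouse (-0.13 to 0.54), for Ccl7 with the replicate block (0.11) and over those fits (-0.67 to 0.29), for Ccl8 with the replicate block (0.12) and for Ccl5 over those fits (-0.48 to 0.15). The cause was not tested. The block left 0 of 2 calls among inducers and 4 higher and 9 lower genes over all (255 and 110 without it), and DESeq2 gave 690 and 348, the 12-library fit 579 and 307, no count filter 471 and 123, and the GC and length adjustment 55 and 40 (12 and 21 with the block). DESeq2 called 3 other CC ligands in PyMT TANs against marrow in place of 1. With library totals in place of TMM, mean levels moved by more than 1 SD for Ccl3 in PyMT TANs (220 CPM) and for Ccl5 and Ccl6 in WT BM neutrophils (0.133 and 778 CPM), and the median log2 fold change of all genes moved from 0.087 to 0.53 in PyMT TANs against marrow.

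Mice that share a number in the labels are not the same animal. Their deviations from the group means correlated at -0.041 on average (-0.22 to 0.10 over 12 pairs), beside 0.014 for mice with different numbers. Such a mean over all genes cannot exclude a batch shared by number, and the labels name no batch. With 4 mice per group, and 0 to 6 counts for 5 ligands in marrow, depth and spread limit the precision for Ccl2, Ccl5, Ccl7, Ccl8 and Ccl12.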
